A study of Sus scrofa with 70 samples.

Results

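The genes described here are 7 genes by which Leydig cells, the steroid-producing cells between the tubules of the testis, turn cholesterol into androgens: LHCGR, NR5A1, STAR, CYP11A1, CYP17A1, CYB5A and HSD17B3. They were chosen by name, and the level of each gene is the sum of the TPM values (an abundance scaled to transcript length and to a fixed total per library) of all transcripts that carry its symbol in the annotation. They are 7 of the 35680 genes with a TPM value, and 56 of 133722 transcripts belong to them. RNA came from 5 reproductive glands of 12-month-old boars. They were the testis, the epididymis (written Epi below) and 3 accessory glands, the bulbourethral (BG), the prostate (PG) and the vesicular (VG). The boars were of 2 breeds, the Banna mini-pig inbred line (BMI) and the Diannan small-ear pig (DSE), the non-inbred breed from which BMI was bred. Neither breed carried a treatment or a designed allele, and BMI is 1 inbred line. Each breed and gland had 3 RNA-seq libraries, 30 in all, and 1 PacBio Iso-seq library of full-length transcript reads, 10 in all. The labels do not tie libraries to animals, so p-values measure only the spread between these libraries, which may be technical.

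Luteinizing hormone from the pituitary binds its receptor on the Leydig cell, and the cyclic AMP that follows sets cholesterol moving into the mitochondrion. There CYP11A1 cuts the side chain of cholesterol to give pregnenolone. CYP17A1 and its partner cytochrome b5 then make C19 steroids in the endoplasmic reticulum, and HSD17B3 reduces androstenedione to testosterone. The boar testis is known for a large output of androgens, of estrogens and of the 16-androstene steroids of boar taint, for whose synthesis cytochrome b5 is also needed.

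Coordinates are those of Sscrofa11.1. LHCGR (ENSSSCG00000008421), the receptor for luteinizing hormone, lies on the plus strand at chr3:91964397-92024064. NR5A1 (ENSSSCG00000005588), the nuclear receptor SF-1 that drives steroidogenic genes, lies on the minus strand at chr1:265284493-265311455. STAR (ENSSSCG00000034942), which carries cholesterol to the inner mitochondrial membrane, lies on the plus strand at chr15:48376800-48385901. CYP11A1 (ENSSSCG00000025273) lies on the plus strand at chr7:59175692-59188480 and CYP17A1 (ENSSSCG00000010591) on the minus strand at chr14:113805611-113812254. CYB5A (ENSSSCG00000004875), which encodes cytochrome b5, lies on the plus strand at chr1:149737535-149774532. HSD17B3 (ENSSSCG00000010937) lies on the plus strand at chr10:25822913-25866871. Of the exon bases of STAR, 283 of 2666, or 10.6%, are also exon bases of ASH2L on the opposite strand, and reads from these bases cannot be told apart without strand. All 2666 exon bases of STAR also lie in a transcript of the same strand that joins STAR with another gene, is not counted in STAR here and had at most 15.8 TPM. HSD17B3 shares 26 exon bases, or 2.16%, with an unnamed gene of the opposite strand, and the other 5 genes share none with another gene.

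3 sets of genome sequence are shown. The first holds splice sites at and after exon 10 of LHCGR, because the choice of acceptor there decides whether a transcript encodes the membrane-spanning part of the receptor. Each is written 5′ to 3′ on the plus strand with 15 bases on each side of the exon edge, and the capitals mark the intron's GT or AG:
LHCGR donor of exon 10, chr3:92015006-92015035: aaataatgaaacactGTaagtatttgcatg
LHCGR acceptor of the full-length transcript, chr3:92020212-92020241: atgttcttcttacAGttattctgccatctt
LHCGR late annotated acceptor, 937 bases further on, chr3:92021149-92021178: gcaattttcacaaAGgcattccgaagggat

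The second is an exon of 24 bases in the annotated CYB5A transcript ENSSSCT00000051381, shown because short reads were assigned to that transcript while none of the 10 Iso-seq isoforms of CYB5A in the annotation held the exon:
CYB5A exon, chr1:149768885-149768908: gaatcttaaaggccatgtttccag

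The third is the 250 bases before the outermost annotated start of CYP17A1, the most abundant of the 7 genes, on the minus strand. That start is the 5′ end of PB.6735.10, an isoform with 4 of 3378 full-length reads of CYP17A1. The window overlaps the span of WBP1L, and whether this start is the one in use was not tested. Capitals mark AGGTCA, the half-site of nuclear receptors such as NR5A1, on either strand, and TGATAA, a site of the kind bound by factors of the GATA family:
CYP17A1 upstream, chr14:113812255-113812504: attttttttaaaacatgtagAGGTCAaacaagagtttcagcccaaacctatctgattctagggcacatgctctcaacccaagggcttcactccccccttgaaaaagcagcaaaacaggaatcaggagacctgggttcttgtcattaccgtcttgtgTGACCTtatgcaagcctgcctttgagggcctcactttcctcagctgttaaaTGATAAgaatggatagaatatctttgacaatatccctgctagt

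The matches to AGGTCA begin 230 and 94 bases before the start and the match to TGATAA begins 43 bases before it. AGGTCA on either strand was present in the windows of 3 of the 7 genes, STAR, CYP17A1 and CYB5A, and in 13.0% of 41253 windows of the same length before annotated starts. AGATAA or TGATAA was present for 3 of the 7, STAR, CYP17A1 and HSD17B3, and in 19.7% of windows, and TATAAA for HSD17B3 alone and in 15%. The longer NR5A1 letters CAAGGTCA or CAAGGCCA, which contain or vary the half-site, were in none of the 7 windows and in 3.68% of all windows. A match describes letters only, and its absence says only that these letters are not in this window. Each window lies before the outermost annotated start, which need not be the start most used. For STAR, CYP11A1 and NR5A1 that start, too, belongs to an isoform with only 2 or 3 full-length reads.

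2 RNA-seq libraries stood apart in ways that touch these genes. In the library labelled BMI prostate replicate 2, the 20 genes with the largest vesicular minus prostate difference summed to 418413 TPM, against 22.9 to 74.2 TPM in the other 5 prostate libraries and 500263 to 675292 TPM in the vesicular libraries. The 20 genes were chosen from the vesicular and the other 5 prostate libraries, so the gap between those follows from the choice. BMI prostate replicate 2 had no part in it. The BMI prostate Iso-seq library likewise had 10339 of 263309 reads, or 3.93%, from the vesicular genes found by Iso-seq, against 4 reads in DSE prostate. In DSE testis replicate 2 all 7 genes were at their highest, 1.81 times (NR5A1) to 4.58 times (HSD17B3) the median of the other 5 testis libraries. Results that rest on either library are given with and without it. In testis, the marker lists of Leydig, Sertoli and spermatogenic cells summed to 18607 to 63521, 269 to 619 and 22597 to 98813 TPM, above every library of the other glands, where the highest sums were 391, 119 and 903 TPM. The Leydig list of 6 genes holds 4 of the 7 genes described here. The most abundant genes of the 3 lists were INSL3 of Leydig cells (mean 19670 TPM), CLDN11 of Sertoli cells (182 TPM) and PRM1 of spermatids (51526 TPM). Not every marker was highest in testis: SOX9 of the Sertoli list was at 12.0 to 37.3 TPM there and at 57.8 to 111 TPM in BG, while AMH, DHH and INHBB of that list overlapped with other glands, and HSD3B1 of the Leydig list had a mean of 8.16 TPM in testis and 156 TPM in Epi. Of markers of the adrenal cortex, the other steroid-producing tissue of the male, CYP21A2 was at 0.848 to 2.55 TPM, MC2R at 1.08 to 9.84 TPM and MRAP at 4.05 to 26.2 TPM in the 6 testis libraries. All 3 were called higher in testis than in the mean of the other 4 glands, by 1.20, 2.02 and 2.71 on the scale of log2(TPM + 1), and their part in the levels of the 7 genes was not tested.

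All 7 genes were far higher in testis than in the other 4 glands, and 6 of them were nearly confined to it. CYP17A1, STAR, CYB5A and CYP11A1 were among the 98 most abundant genes of the 30851 found in testis, at ranks 11, 25, 43 and 98. The receptor LHCGR, the regulator NR5A1 and the final enzyme HSD17B3 were much lower, at ranks 1825, 2485 and 3291. CYP17A1 alone made up 0.644% of all testis TPM and STAR 0.268%. In bulk tissue, fewer cells of a type and less RNA per cell cannot be told apart.

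LHCGR was at 93.9, 69.4 and 38.3 TPM in BMI testis replicates 1, 2 and 3 and at 40.2, 177 and 142 TPM in DSE testis, a mean of 93.4 ± 56.1 TPM (SD, n = 6). It was at most 0.575 TPM in the 24 libraries of the other glands. NR5A1 was at 68.2, 47.1 and 67.0 TPM in BMI testis and at 62.4, 113 and 58.6 TPM in DSE testis, with a mean of 69.3 ± 22.6 TPM (SD, n = 6). NR5A1 was the steadiest of the 7 genes in testis, with its highest library 2.39 times its lowest, and was at 0 in 16 of the 24 other libraries.

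STAR was at 3301, 1717 and 1831 TPM in BMI testis and at 1844, 5143 and 2270 TPM in DSE testis. Its mean was 2684 ± 1339 TPM (SD, n = 6), and its highest value outside testis was 0.710 TPM. CYP11A1 was at 1155, 772 and 815 TPM in BMI testis and at 734, 1900 and 822 TPM in DSE testis, a mean of 1033 ± 451 TPM (SD, n = 6). In both genes DSE replicate 2 was highest and BMI replicate 1 second, and the breeds overlapped.

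CYP17A1 was at 5825, 3780 and 4585 TPM in BMI testis and at 4743, 13936 and 5782 TPM in DSE testis, with a mean of 6442 ± 3752 TPM (SD, n = 6). Its lowest testis library was 8165 times its highest library elsewhere. CYB5A was at 2083, 1468 and 1269 TPM in BMI testis and at 994, 3450 and 1487 TPM in DSE testis, a mean of 1792 ± 888 TPM (SD, n = 6). CYB5A was the exception outside testis by its level, up to 299 TPM. All 24 libraries there had it, as they had STAR, which was at most 0.710 TPM.

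HSD17B3 was at 21.5, 29.1 and 27.5 TPM in BMI testis and at 38.8, 134 and 53.2 TPM in DSE testis. Its mean was 50.6 ± 42.1 TPM (SD, n = 6), and all 3 BMI libraries were below all 3 DSE libraries. The order of the mean levels in testis was CYP17A1, STAR, CYB5A, CYP11A1, LHCGR, NR5A1 and HSD17B3. The ranges of neighbours in this order overlapped over the 6 libraries, except that CYP11A1 at 734 TPM or more stood above LHCGR at 177 TPM or less. Within each testis library, however, CYP17A1, STAR, CYB5A and CYP11A1 kept this order. That of LHCGR, NR5A1 and HSD17B3 changed between libraries.

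**Figure D1:**
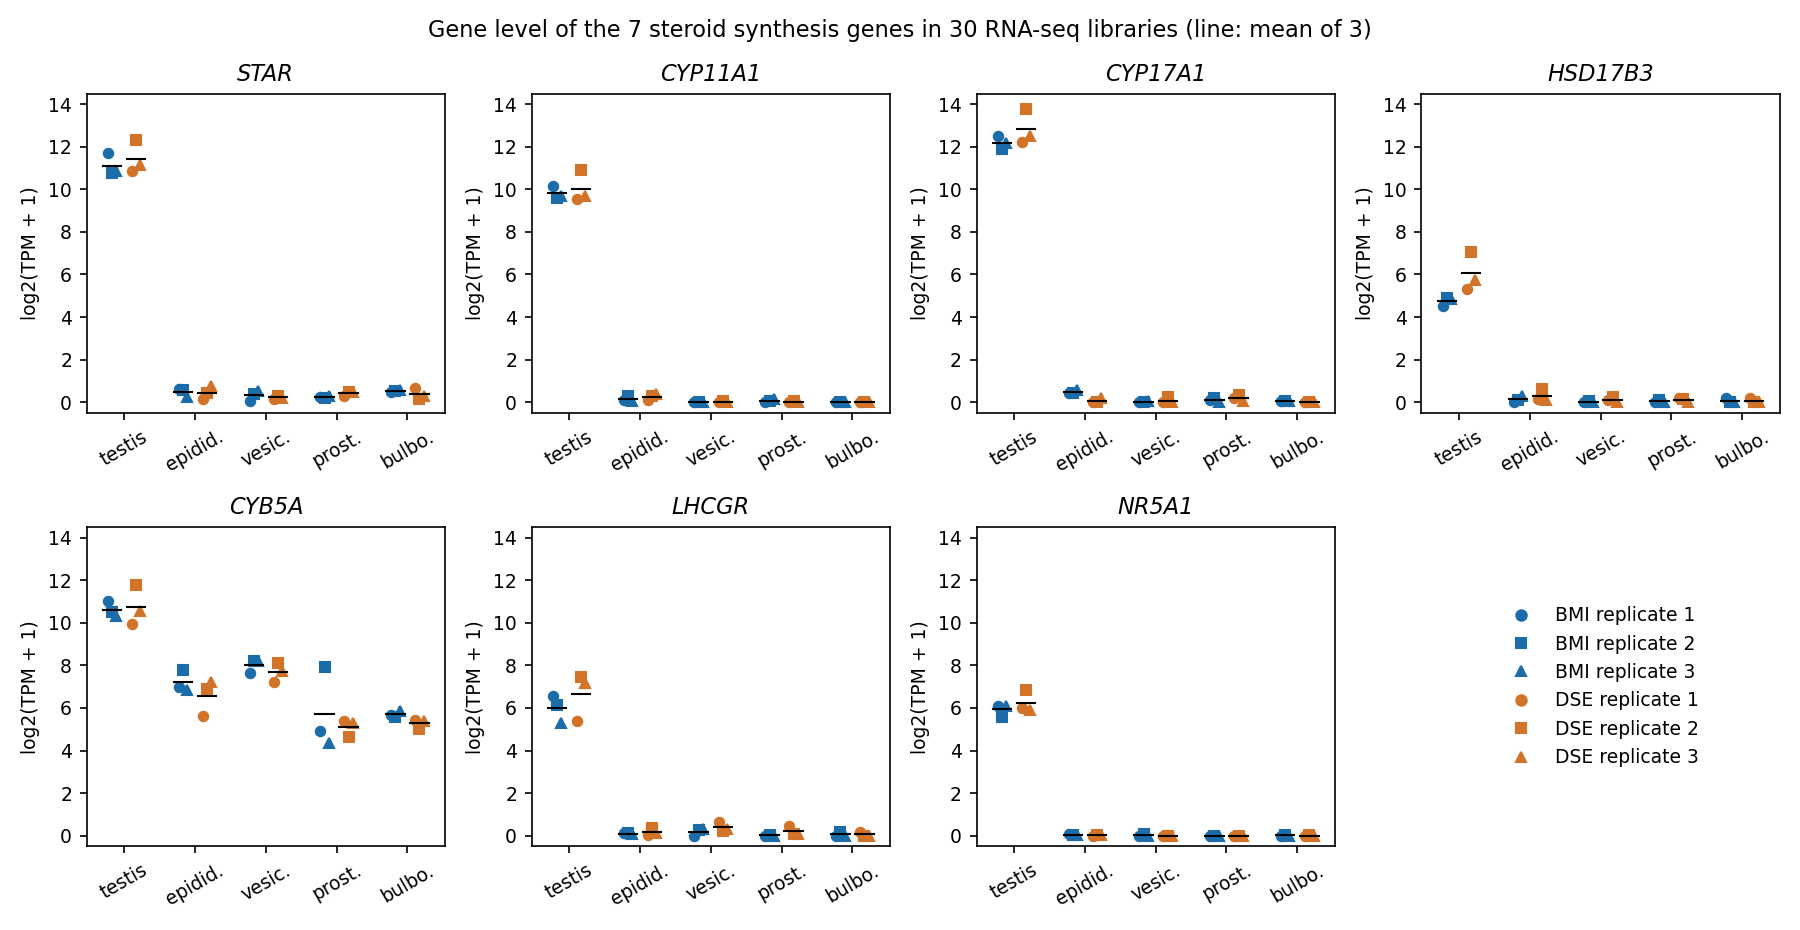
Gene level of the 7 genes as log2(TPM + 1) in the 30 RNA-seq libraries, by gland on the horizontal axis, with colour for the breed, symbol for the replicate and a line at the mean of 3 libraries. In all panels testis stands highest, and only CYB5A has levels well above 0 in the other 4 glands.

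On the scale of log2(TPM + 1), fitted with limma over all 30 libraries, the mean of testis minus the mean of the other 4 glands was 12.38 (SE 0.138) for CYP17A1, 10.89 (SE 0.158) for STAR and 9.86 (SE 0.129) for CYP11A1. It was 6.18 (SE 0.193) for LHCGR, 6.07 (SE 0.103) for NR5A1, 5.29 (SE 0.151) for HSD17B3 and 4.27 (SE 0.337) for CYB5A. Each SE rests on 1 spread per gene shared by all 10 groups. All of the 7 genes but CYB5A lie near 0 outside testis with little spread, so their SE understates the spread between testis libraries. Calls asked for a log2 difference of at least 1 and, over all 19911 genes tested, a p below 0.05 after Benjamini-Hochberg adjustment. All 7 genes were called higher, with adjusted p from limma of 2.27e-11 for CYB5A and smaller for the rest, in a comparison that called 34.5% of all genes higher and 47.3% in either direction. The other 6 genes passed the filter on low values, 1 TPM in 3 libraries, only through testis. The pseudocount of 1 bounds what a gene near 0 can show, so these differences understate the change. Each of the 7 was also called higher in testis against each of the other glands alone. These comparisons called 50.9% (Epi), 52.9% (VG), 48.8% (PG) and 49% (BG) of all genes in either direction.

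CYB5A outside testis differed between the glands. In VG it was at 198, 293 and 299 TPM in BMI and at 147, 276 and 209 TPM in DSE, a mean of 237 ± 61.4 TPM (SD, n = 6). In Epi it was at 124, 222 and 114 TPM in BMI and at 48.1, 118 and 146 TPM in DSE, a mean of 129 ± 56.1 TPM (SD, n = 6). The 2 glands overlapped.

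In BG it was at 50.2, 46.5 and 57.3 TPM in BMI and at 42.2, 30.9 and 41.4 TPM in DSE, a mean of 44.7 ± 8.95 TPM (SD, n = 6). In PG it was at 28.9, 239 and 19.2 TPM in BMI and at 41.1, 23.9 and 38 TPM in DSE. The PG value of 239 TPM is that of the library labelled BMI prostate replicate 2, which holds vesicular transcripts, and the other 5 PG libraries were all below 42 TPM. Their place beside BG, and VG above both, is what the plot of CYB5A by gland shows.

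**Figure D2:**
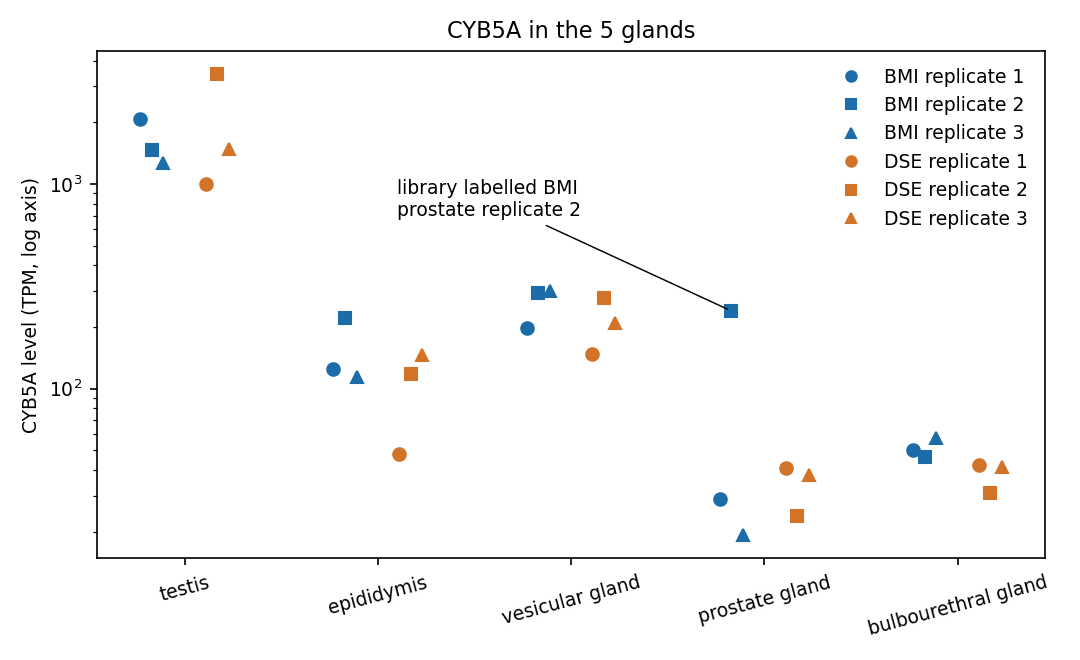
CYB5A level in TPM on a log axis in the 6 libraries of each gland, with colour for the breed and symbol for the replicate. Testis runs from 994 to 3450 TPM and VG from 147 to 299 TPM, and 1 PG library at 239 TPM stands apart from the 5 at 19.2 to 41.1 TPM.

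In the same limma fit, CYB5A was higher in VG than in PG by 2.44 (SE 0.426, adjusted p 0.000101) and than in BG by 2.36 (adjusted p 6.07e-05) on the log2 scale. These comparisons called 14.8% and 27.7% of all genes. Epi was higher than PG by 1.48 (adjusted p 0.00697) and than BG by 1.40 (adjusted p 0.0116), where each comparison called 21.3%. Without BMI prostate replicate 2, VG minus PG was 2.99 and Epi minus PG 2.02. Epi minus VG was -0.96 (adjusted p from limma 0.0521, or 0.00588 without BMI prostate replicate 2), under the fold asked for, with 36.4% of all genes called, and PG minus BG was -0.08 (adjusted p 1) with 7.64% called, or -0.63 (adjusted p from limma 0.186) without BMI prostate replicate 2. Scaled by size factors instead of TPM, Epi minus PG was 0.97 (adjusted p from limma 0.0588) and PG minus BG turned to 0.20. On that scale Epi minus VG was -2.05 (adjusted p from limma 0.000237) and was called, and VG minus PG was 3.02. None of the other 6 genes was called in any of these 6 pairs of glands on the scale of log2(TPM + 1), on which levels this near 0 can hardly differ. With a pseudocount of 0.1 there were 9 calls over the 7 genes, where CYP11A1 and CYP17A1 were called higher in Epi than in VG and BG, and LHCGR higher in VG than in BG. These added calls rest on means of 0.147 TPM (CYP11A1) and 0.217 TPM (CYP17A1) in Epi and 0.237 TPM (LHCGR) in VG. Such levels are under the 1 TPM of the filter and carry no counting error, and the share of all genes called is not given. No conclusion is drawn from them.

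Between the breeds, none of the 7 genes was called in testis, where limma on the 6 testis libraries called 0.585% of 16414 genes. At an unadjusted p under 0.05 there was 1 of the 7, HSD17B3, beside 2207 of the 16414 genes. HSD17B3 was at 26.0 ± 4.0 TPM in BMI and 75.2 ± 51.1 TPM in DSE (SD, n = 3 each), and BMI minus DSE was -1.30 on the log2 scale (SE 0.438, adjusted p from limma 0.277). The 2 groups of HSD17B3 values did not overlap, a split that has a two-sided exact permutation p of 0.1 with 3 against 3 libraries. The share of all genes whose groups are apart in this way was not computed. Without DSE testis replicate 2 the difference was -0.79 (adjusted p from limma 0.157).

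For the other 6 genes BMI minus DSE in testis was -0.67 (SE 0.576) for LHCGR, -0.64 (SE 0.418) for CYP17A1, -0.35 (SE 0.438) for STAR, -0.31 (SE 0.319) for NR5A1, -0.22 (SE 0.393) for CYP11A1 and -0.13 (SE 0.455) for CYB5A, with adjusted p from limma of 0.490 to 0.897. All 6 groups overlapped. The negative sign of STAR, CYP11A1 and CYB5A rested on DSE replicate 2, without which their differences were 0.092, 0.21 and 0.37. Without the same library LHCGR was at -0.26, CYP17A1 at -0.17 and NR5A1 at -0.013, so these differences too rested in large part on it. Over all 6 testis libraries left out in turn, LHCGR ran from -1.32 to -0.26, CYP17A1 from -0.95 to -0.17 and NR5A1 from -0.48 to -0.013. Outside testis CYB5A alone could be tested between the breeds, and it was not called in Epi (0.64), VG (0.34), PG (0.61) or BG (0.43), where 0%, 0.821%, 0.355% and 0.0872% of all genes were called. In Epi, where limma called no gene, 294 of 15402 genes had an unadjusted p under 0.05. The PG value of CYB5A turned to -0.49 (adjusted p from limma 0.243) without BMI prostate replicate 2.

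**Figure D3:**
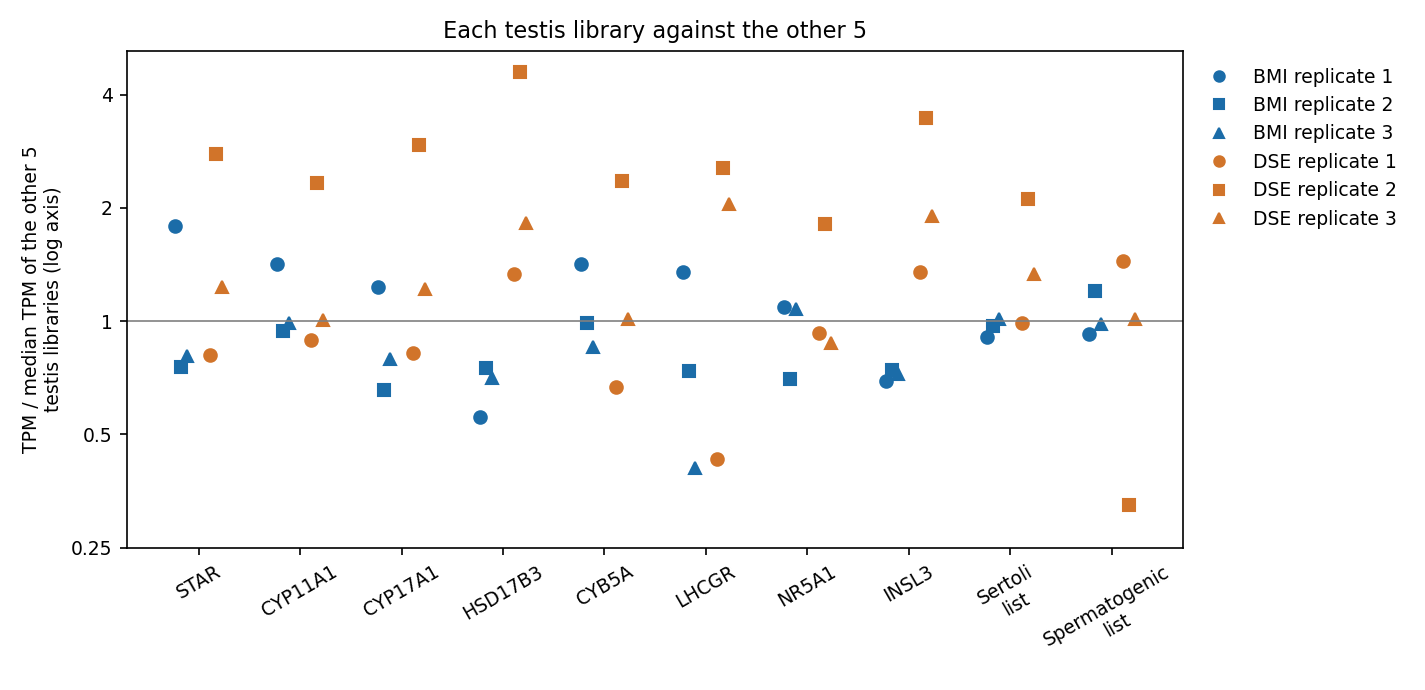
TPM of each of the 6 testis libraries divided by the median of the other 5, on a log axis, for the 7 genes, INSL3 and the summed Sertoli and spermatogenic markers, with colour for the breed and symbol for the replicate. DSE replicate 2 lies above 1 for all 7 genes, from 1.81 to 4.58, and at 0.324 for the spermatogenic markers.

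DSE testis replicate 2 differed from the other 5 testis libraries in more than these genes. INSL3, another Leydig cell product, was at 3.46 times their median, the summed Sertoli markers at 2.11, macrophage markers at 2.18, peritubular markers at 1.9 and endothelial markers at 1.61. The summed spermatogenic markers were at 0.324 times the median, and over the 6 libraries that sum ran from 22597 to 98813 TPM. The part of this in the levels of the 7 genes was not tested. INSL3 was at 11448, 12257 and 12008 TPM in BMI testis and at 16566, 42359 and 23381 TPM in DSE testis. These groups did not overlap, but no test of INSL3 between the breeds is given, nor the share of all genes whose groups are apart.

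The 7 genes did not keep 1 ratio to each other. Per 1000 TPM of CYP17A1 in the same library, a measure chosen after the values were seen, HSD17B3 was at 3.70, 7.71 and 5.99 TPM in BMI and at 8.18, 9.59 and 9.20 TPM in DSE. CYP11A1 was at 198, 204 and 178 TPM in BMI against 155, 136 and 142 TPM in DSE. CYB5A was at 358, 388 and 277 TPM against 210, 248 and 257 TPM, and STAR at 567, 454 and 399 TPM against 389, 369 and 393 TPM. In these 4 ratios the breeds did not overlap, with HSD17B3 lower and the other 3 higher in BMI relative to CYP17A1. The two-sided exact permutation p was 0.1 for each, which is the smallest that 3 against 3 libraries can give, so no such difference could pass 0.05. All 4 ratios share CYP17A1 as divisor, itself at -0.64 for BMI minus DSE on the log2 scale and not called, so they are not separate results. The share of all genes whose ratio to CYP17A1 separates the breeds was not computed. For LHCGR and NR5A1 the exact permutation p was 0.9 and 0.3.

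Whether the breed difference in testis departed from that in the other 4 glands was tested by an interaction in the fit of 30 libraries, which called 3.82% of all genes. HSD17B3 was called at -1.22 (SE 0.301, adjusted p from limma 0.0154) and the other 6 were not. Since HSD17B3 was at most 0.546 TPM outside testis, this value is close to the testis difference judged against the spread over all glands. It lost its call without DSE testis replicate 2, at -0.71 (adjusted p from limma 0.0338, under the fold asked for), and with a pseudocount of 0.1, at -0.92 (adjusted p from limma 0.670). Without replicate numbers 1, 2 and 3 in turn the difference was -1.48, -0.85 and -1.35, and no longer called (adjusted p from limma 0.0729, 0.0892 and 0.235). The Iso-seq reads of HSD17B3 ran the other way, with 27 in BMI testis and 10 in DSE testis, or 5.93 (95% exact Poisson interval 3.91 to 8.63) and 2.18 (1.05 to 4.02) per 100000 reads. Each is 1 library and the intervals cover counting error only.

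A list of 83 other genes of the steroid pathway gives the setting of the 7, and 78 of them could be tested. Against the mean of the other glands, 42 were called higher in testis, 6 lower and 30 neither, with a median log2 difference of 1.19. Over all 19911 genes 6877, or 34.5%, were higher and 2535 lower, with a median of 0.31. Genes of cholesterol synthesis were higher for 14 of 16, with a median of 2.32. IDI1, an isomerase early in the path, was at 312 ± 145 TPM (SD, n = 6), higher by 3.81 on the log2 scale. The other 2 of the 16, the regulators SREBF2 (-0.05) and INSIG1 (0.06), were not called.

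Of 10 genes of cholesterol supply and storage, 7 were higher and 1 lower, with a median of 2.90. They included the lipoprotein receptor SCARB1 (446 ± 213 TPM, higher by 4.02) and the cholesteryl ester hydrolase LIPE (151 ± 55.3 TPM, higher by 5.69). NPC2, a cholesterol carrier that is also a major protein of epididymal fluid, was the 1 lower gene against the mean of the other glands, at -1.37 (SE 0.569, adjusted p from limma 0.0328). Its mean was 156 TPM in testis, below Epi (11492 TPM) and VG (574 TPM) and above BG (99.3 TPM) and PG (64.0 TPM). These are the steps that feed STAR with cholesterol.

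Of 8 genes of mitochondrial entry and electron transfer, 4 were higher and 1 lower. FDXR, the reductase that passes electrons by ferredoxin to CYP11A1, was at 230 ± 120 TPM (SD, n = 6) and higher by 4.04. FDX1, POR and CYB5R3 of the same chains were higher by 3.28, 1.97 and 3.09. TSPO, a protein of the outer mitochondrial membrane named in cholesterol import, was the lower one, at 9.71 to 18.7 TPM in testis against 42.5 to 417 TPM elsewhere, a difference of -3.07 (SE 0.309, adjusted p from limma 2.31e-09). No TSPO library of testis overlapped with one of another gland.

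Of 18 further steroid enzymes tested, 4 were higher, 2 lower and 12 neither, a smaller share higher than the 34.5% of all genes, and their median of 0.17 was below the 0.31 of all genes. SULT2A1, which sulfates steroids such as DHEA, was at 141 ± 47.6 TPM (SD, n = 6) and higher by 6.74, and PAPSS2, which makes the sulfate donor, was at 360 ± 242 TPM and higher by 6.11. HSD17B6 (-1.68) and the estrogen sulfotransferase SULT1E1 (-1.78) were lower than the mean of the other glands. HSD17B6 had a mean of 2.11 TPM in testis and in VG, 0.361 TPM in Epi, 76.7 TPM in PG and 36.2 TPM in BG. SULT1E1 had a mean of 0.234 TPM in testis, 51.1 TPM in Epi, 2.21 TPM in PG, 1.82 TPM in VG and 0.209 TPM in BG. HSD3B1, matched to its locus by position in RefSeq, encodes the step between pregnenolone and progesterone. It was at 4.95 to 11.4 TPM in testis and at 10.5 to 388 TPM in Epi, and was not called (-0.49, adjusted p from limma 0.197). Its testis level lay far below that of CYP11A1 and CYP17A1 on either side of it in the pathway. Copies of this gene that the annotation does not hold could not be counted.

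Of 26 regulators and signalling genes tested, 13 were higher, 2 lower and 11 neither, with a median of 0.99. GATA4, a transcription factor of the gonads, was at 35.2 ± 10.1 TPM (SD, n = 6) and higher by 5.11, and AKAP1, which anchors protein kinase A at mitochondria, was at 184 ± 62.1 TPM and higher by 4.03. IGF1R (-1.85) and PRLR (-1.29), receptors of growth factor and prolactin, were the 2 lower ones. Between the breeds in testis none of the 74 genes of the list tested was called. Their median was -0.30, beside 0.10 over all genes. Without DSE testis replicate 2 it was -0.022, beside 0.082 over all genes, and without DSE testis replicate 1 it was -0.53, beside 0.068.

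**Figure D4:**
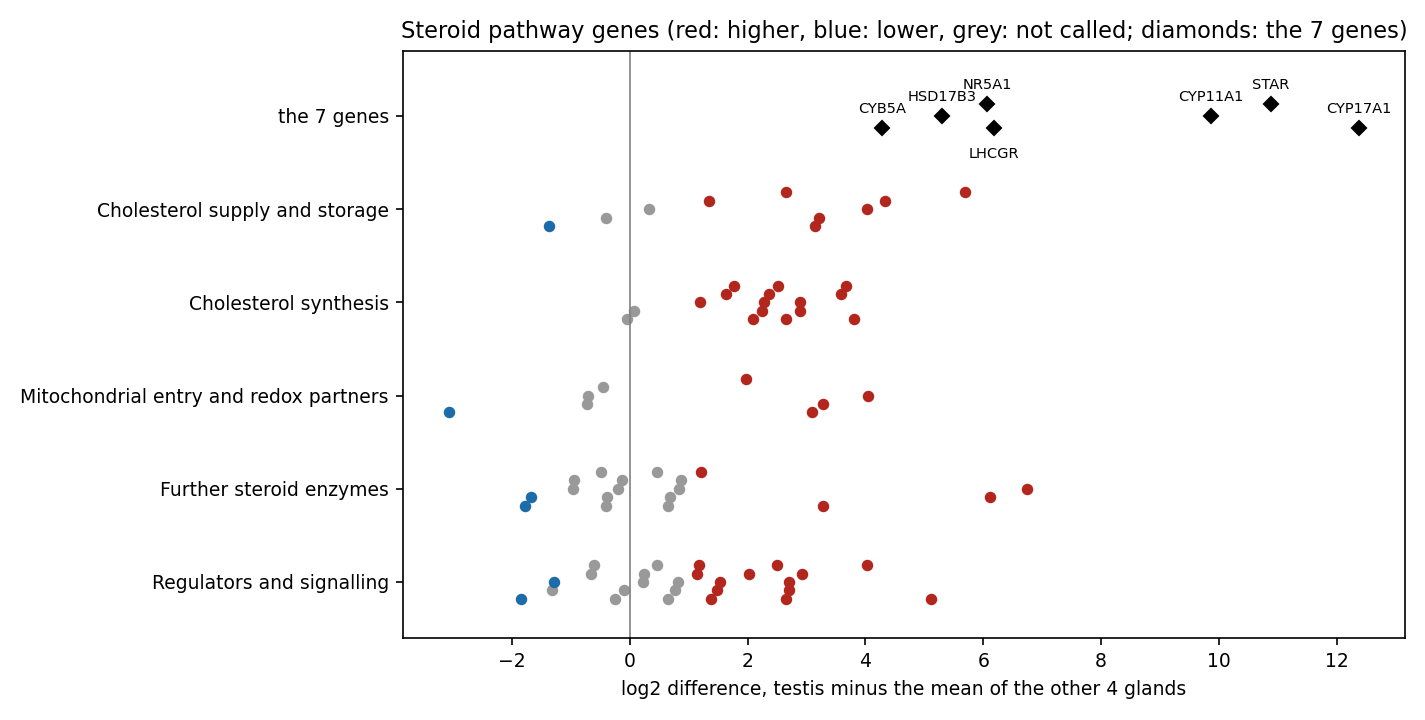
Log2 difference of testis minus the mean of the other 4 glands for the 7 genes and for the tested genes of the pathway list by role, 1 point per gene, with colour for genes called higher, lower or neither. The 7 genes lie between 4.27 and 12.38, and 14 of 16 genes of cholesterol synthesis lie above 1.

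Over the 30 libraries, the 3 genes most like each member by Pearson's r of log2(TPM + 1) were sought among 13884 genes with a symbol. STAR, CYP11A1, CYP17A1 and NR5A1 had each other as nearest, at r of 0.999, and GATA4 was among the 3 of CYP17A1. The nearest of LHCGR were SEPTIN14 (0.995), GATA4 (0.994) and SERPINA5 (0.993), and those of HSD17B3 were RHAG, MAGEA10 and MRO at 0.995. For CYB5A they were RDH11 (0.962), a retinol dehydrogenase at 1060 ± 562 TPM in testis, TDRKH (0.940) and NUP62CL (0.933). The libraries share their gland, so that for all but CYB5A these values describe testis against no testis.

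The Iso-seq libraries gave 9040 full-length reads in 51 isoforms of the 7 genes, of 3468110 reads and 110996 isoforms in all, with 231413 to 458697 reads per library. The 7 genes made up 0.787% of the reads of BMI testis and 0.775% of those of DSE testis. SQANTI3, which compares isoforms with the annotation, had classed 5 as full splice match (FSM), 5 as incomplete splice match (ISM), 17 as NIC (combinations of annotated splice sites in an order that the annotation lacks) and 24 as NNC (with at least 1 splice site that the annotation lacks). There is 1 library per breed and gland, so nothing in the reads was tested.

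In testis, CYP17A1 had 1877 reads in DSE and 1501 in BMI, CYB5A 1156 and 1373, and CYP11A1 352 and 498. LHCGR had 74 and 125, NR5A1 36 and 36, HSD17B3 10 and 27, and STAR 42 and 23. STAR, second of the 7 by TPM in testis, had fewer full-length reads there than LHCGR in both breeds, and more than NR5A1 in DSE but fewer in BMI. Outside testis CYP11A1, CYP17A1, LHCGR and NR5A1 had 0 of 2555309 reads, which allows a share of up to 1.17 in 1000000 reads, while STAR had 1 read and HSD17B3 2. CYB5A had reads in all 8 other libraries, 1907 in all. They were lowest in DSE BG with 32 (12.1 per 100000, 95% exact Poisson interval 8.25 to 17.0) and highest in DSE VG with 561 (176, 162 to 192). BMI PG with 360 CYB5A reads stood above DSE PG with 85, and that BMI PG library is the one with vesicular transcripts.

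For 5 of the 7 genes the isoform with the most reads was a full splice match. It held 3348 of 3378 CYP17A1 reads (99.1%, 95% Clopper-Pearson interval 98.7 to 99.4) with a frame of 509 residues and 837 of 850 CYP11A1 reads (98.5%, 97.4 to 99.2) with 520 residues. For NR5A1 it held 70 of 72 reads with 461 residues and for HSD17B3 37 of 39 reads with 310 residues. In TPM the same annotated transcripts held 99.6 ± 0.09% of CYP17A1, 98.0 ± 0.43% of CYP11A1 and 94.9 ± 1.1% of NR5A1 in the 6 testis libraries (SD, n = 6). HSD17B3 has a single transcript in the annotation, so its TPM could not be divided. CYP17A1, CYP11A1 and NR5A1 were thus each read almost wholly as 1 isoform by both methods.

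STAR had no full splice match among the isoforms used here. Its 66 reads fell on 15 isoforms, the leading one with 13 reads (19.7%, 95% Clopper-Pearson interval 10.9 to 31.3) and a frame of 224 residues, and 3 isoforms with 7 reads in all had the frame of 285 residues. In TPM, however, the annotated transcript ENSSSCT00000057991 held 92.6 ± 2.1% of STAR (SD, n = 6). A further isoform with 3 reads joins STAR exons with another gene, and its highest TPM was 15.8.

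CYB5A was read mainly as PB.1175.1, an NIC isoform with a frame of 134 residues, which held 4270 of 4436 reads (96.3%, 95% Clopper-Pearson interval 95.7 to 96.8). Its share was 89.4% to 100% in the 10 Iso-seq libraries, so the same isoform led in every gland. In TPM it held 84.8 ± 8.6% in testis (SD, n = 6), and ENSSSCT00000051381, the transcript with the 24-base exon printed above, held 14.6 ± 8.6%, from 0 to 23.5% between libraries. That exon is in 0 of the 10 CYB5A isoforms from Iso-seq in the annotation. The coding sequence is annotated with 99 codons where the exon is present and with 135 in PB.1175.1, the stop codon included.

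The reads of LHCGR, too, were divided between isoforms with different proteins. The full splice match PB.12431.6, with a frame of 696 residues and the whole receptor, held 125 of 199 reads (62.8%, 95% Clopper-Pearson interval 55.7 to 69.5). PB.12431.1, which joins exon 10 to the acceptor that Ensembl lacks, held 41 reads and PB.12431.5, which joins it to the late annotated acceptor, held 20. Their frames share the first 316 residues with the full receptor and then run on with 15 and 9 residues of their own, to 331 and 325. By a hydropathy scan with windows of 19 residues, the full frame has 11 hydrophobic stretches and the short ones have 1, the signal peptide at their start. They keep the hormone-binding part outside the cell and lack the part that spans the membrane.

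With PB.12431.3 (3 reads, ending after 316 residues) and PB.12431.2 (2 reads), 66 of 199 LHCGR reads, or 33.2% (95% Clopper-Pearson interval 26.7 to 40.2), had no membrane-spanning part. The other isoforms with it were PB.12431.7, which skips exon 8 (5 reads, 671 residues), and PB.12431.4 (3 reads, 541 residues). By library, the share without it was 16 of 74 in DSE testis (21.6%, 12.9 to 32.7) and 50 of 125 in BMI testis (40.0%, 31.3 to 49.1), 1 library each. In TPM the share was 57.4%, 57.8% and 70.6% in BMI testis and 82.3%, 51.6% and 53.4% in DSE testis, a mean of 62.2 ± 11.9% (SD, n = 6). DSE replicates 2 and 3 lay below all 3 BMI libraries and DSE replicate 1 above them, and the breed means were 61.9% in BMI and 62.4% in DSE. The transcripts differ in their ends. The annotated full-length transcript has 2183 bases where its Iso-seq match has 4833. PB.12431.1 and PB.12431.5 end 2666 bases beyond the annotated end, and the part of this in the TPM shares was not tested.

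**Figure D5:**
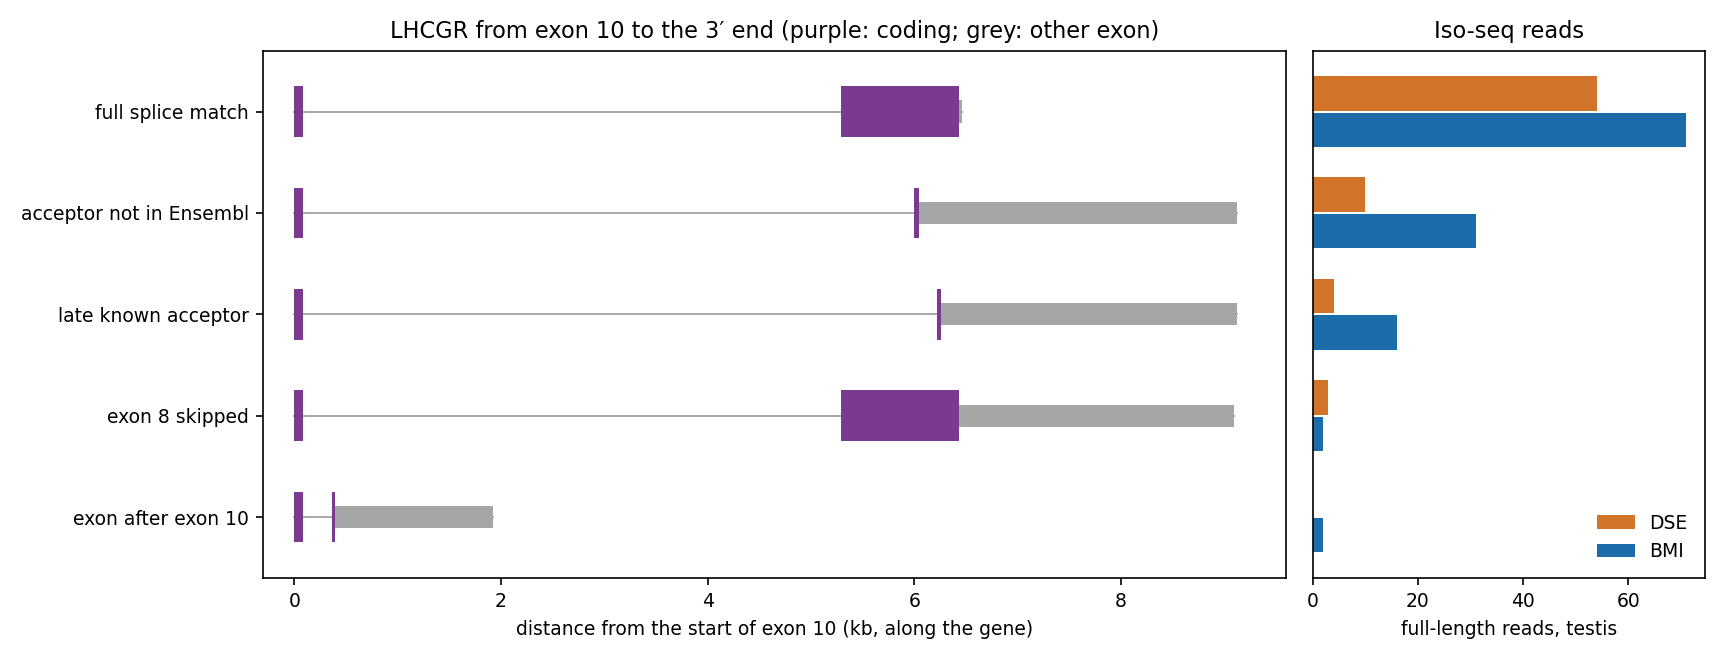
Left, the last exons of 5 LHCGR isoforms by distance from the start of exon 10 in kilobases, with exons in grey and coding sequence in purple, and the full splice match drawn with the annotated ends. Right, the full-length reads of each in the 2 testis Iso-seq libraries: the full splice match has 54 in DSE and 71 in BMI, and the isoform with the acceptor that Ensembl lacks has 10 and 31.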

How the data were processed

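The authors deposited Iso-seq counts of full-length reads per isoform, not normalized, from clustering with IsoSeq3, GMAP alignment to Sscrofa11.1 (susScr11), collapsing and SQANTI3 classes against Ensembl 107. The authors also deposited TPM from salmon (1.9.0 in the submitters' processing notes) on the annotation that joins Ensembl 107 with Iso-seq isoforms outside FSM and ISM. TPM keeps no depth, and no read totals of the RNA-seq libraries were used here, so levels carry no counting error. The paper's methods describe poly-T selection of RNA-seq libraries while the labels state rRNA depletion. Gene levels are sums of TPM by symbol. Genes that reached 1 TPM in 3 or more libraries were fitted as log2(TPM + 1) with limma 3.58.1 in R 4.3.3: all 10 groups for glands and the interaction, and the 6 libraries of 1 gland for breeds. Calls needed a log2 difference of at least 1 and a p below 0.05 after Benjamini-Hochberg adjustment. The fits were also run on simulated data with the same spread in every gland and changes only in genes well above 0. Those data differ from genes that lie near 0 in most glands, so no conclusion is drawn from them. Iso-seq reads and shares have exact Poisson and Clopper-Pearson 95% intervals, which cover counting error only, computed with scipy 1.17.1. Frames of residues are the lengths deposited with the isoforms, and sequences were read from a genome of the same build.

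The 7 members, the lists and the tests were chosen with earlier results of these data known. Named from the pathway list were the 10 called genes with the largest and the 6 with the smallest log2 difference in testis, the 3 genes most like each member, and the gene of highest testis mean in the Leydig, Sertoli, spermatogenic and other marker lists. A few items that this rule names are not reported here. Others named (FDX1, POR, CYB5R3, SREBF2, INSIG1, HSD3B1, CYP21A2, MC2R, SOX9, AMH, DHH, INHBB) were chosen after their values were seen. Of the list symbols, 5 were matched by RefSeq position, 1 by a name table and 5 not at all. Small RNA libraries were not used here. Alternatives were a pseudocount of 0.1, size factors, no filter, one fit of all glands, a replicate block, other isoform minimums and leaving out each library.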

Additional observations from a re-analysis of the deposited data

Results flagged for a closer look

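Gaps within the 6 libraries of a gland were compared with Dixon's 95% critical value in 11 groups of a gene and a gland, of which chance would mark about 1 in 20. CYP17A1 in testis passed it with a gap of 0.669 of the whole range, since DSE replicate 2 was at 13936 TPM and the nearest library at 5825 TPM. CYB5A in PG passed it with a gap of 0.703, since BMI replicate 2 was at 239 TPM and the nearest library at 41.1 TPM. The BMI minus DSE difference of HSD17B3 in testis differed from that in the other 4 glands by -1.22 on the log2 scale (SE 0.301, adjusted p from limma 0.0154). HSD17B3 was at most 0.546 TPM outside testis, so this repeats the testis difference of -1.30, which was not called by itself (adjusted p from limma 0.277). It was not called with a pseudocount of 0.1 (-0.92, adjusted p from limma 0.670) or without DSE testis replicate 2 (-0.71).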

How the results depend on the processing

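Of 297 values recomputed under an alternative, 277 kept their direction and side of the threshold or, for counts, stayed within 1.5 times. The 7 calls in testis held under every alternative run. With all glands in one fit, 1 of the 7 genes (HSD17B3, adjusted p from limma 0.00261) and 2 of the pathway list were called between the breeds in testis, against 0 and 0, and 945 genes in all against 96. Without each of the 6 testis libraries the breed calls stayed at 0 and 0. Fits of all glands were repeated without each replicate number and without DSE testis replicate 2 or BMI prostate replicate 2, and the pathway calls of testis against the other glands then ran from 47 to 50, against 48. The interaction call of HSD17B3 was lost with a pseudocount of 0.1 (0 of 7), and leaving out replicates gave 0 to 1 of 7, where without replicate 1 the called gene was LHCGR. The genes called in all in the interaction were 425 with that pseudocount, against 760. Calls in pairs of the other 4 glands were 9 with a pseudocount of 0.1, against 4, and 2 to 5 without replicates. The calls that this pseudocount added were of genes under 1 TPM in these glands. The cause was not tested.

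Several differences that were not called turned sign. CYB5A in PG minus BG was 0.20 with size factors and ran from -0.63 to 0.29 in these 5 repeats, turning without replicate 1 (0.083) and replicate 3. BMI minus DSE in PG ran from -0.49 to 1.30 for CYB5A without each library, turning without BMI prostate replicate 2. In testis BMI minus DSE ran from -0.53 to 0.37 for CYB5A, from -0.65 to 0.092 for STAR and from -0.47 to 0.21 for CYP11A1, each turning without DSE testis replicate 2, and for CYB5A also without BMI testis replicate 3 (0.023). None of these values was called. CYB5A Epi minus PG lost its call with size factors (0.97) and without replicate 3 (1.11), and Epi minus VG gained one with size factors (-2.05 against -0.96). With size factors the median of testis minus other glands over all genes moved from 0.309 to 0.126. Without a filter 22 genes were called between the breeds in testis. Counting isoforms of at least 10 reads left 12 of 51 isoforms and 8898 of 9040 reads, and adding the joined isoform gave 52 and 9043. Alternatives without DSE testis replicate 2 or BMI prostate replicate 2 in the fits of all glands were chosen after seeing the data.

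Replicate numbers were not taken to pair the libraries: of 15 pairs of the same number in both breeds, 4 had deviations correlated over 0.1 (range -0.555 to 0.371). Between testis and another gland it was 2 of 12 pairs in BMI and 5 of 12 in DSE, with all 3 pairs of testis and VG in DSE among them (0.151 to 0.293). With the replicate block, 227 genes were called between the breeds in testis, none of the 7 among them (HSD17B3 adjusted p from limma 0.125), and 727 in the interaction.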

Other observations

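Over the marker lists, the gene with the highest mean in testis was TAGLN for peritubular cells (69.4 TPM), PECAM1 for endothelium (19.1 TPM), CSF1R for macrophages (3.54 TPM), EPCAM for epithelium (22.5 TPM), ADAM7 for epididymis (7.59 TPM) and MRAP for adrenal cortex (13.9 TPM). The locus matched to HSD3B1 had 1 full-length read in BMI testis, 3 in DSE testis and 24 in DSE VG, of 52 in the 10 Iso-seq libraries.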
